A study of Mus musculus with 9 samples.

Results

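The 9 genes described here encode DOT1L and the elongation proteins that MLL fusions use: Dot1l, Mllt10, Mllt1, Mllt3, Aff1, Aff4, Ell, Cdk9 and Ccnt1. They were chosen by name. Every probe set annotated to exactly one of these symbols was taken, which gave 23 probe sets for 9 of the 20680 genes in the data, and all 9 symbols were found. One further probe set names Ccnt1 together with a second locus and was left out. The arrays hold 5 Ezh2-null and 4 WT samples from mice with MLL-AF9 leukaemia, an acute myeloid type, on a C57B/6 background. In both groups the fusion came from a retrovirus marked with GFP, pIpC was given to the primary recipients to switch on Cre, and YFP reported Cre activity. Marrow of sublethally irradiated secondary recipients was sorted for live cells positive for both markers, so WT cells had seen the virus, pIpC and Cre as well. The labels call the samples biological replicates but do not say which primary leukaemia each one came from, and leukaemias of one origin would make the p-values too small. Which promoter drives Cre was not stated in the labels.

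DOT1L is the methyltransferase that marks a lysine in the globular core of histone H3 on transcribed genes. AF10, the product of Mllt10, binds DOT1L and promotes its higher methylation states. ENL and AF9, the products of Mllt1 and Mllt3, are paralogous YEATS-domain proteins that read acylated histones and hold either DOT1L or the AFF scaffold through the same C-terminal region. The scaffolds AFF1 and AFF4 build the super elongation complex with ELL and with P-TEFb, the kinase made of CDK9 and cyclin T1 that releases paused RNA polymerase II. MLL fusions with AF9, ENL, AF10, AF4 (AFF1) or ELL draw this machinery to MLL target genes, and MLL-AF9 leukaemia is known to depend on DOT1L. The comparison asks whether the transcripts of this machinery differ once Ezh2, the histone methyltransferase of the Polycomb system, has been deleted from the leukaemia.

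None of the 9 genes passed the test, and their differences were small. Aff1 and Mllt3 read 1.26-fold and 1.32-fold higher in Ezh2-null leukaemia on their brightest probe sets, and Ccnt1 read 80.8% of the WT intensity. Each of these 3 had no overlap between the genotypes, as had 5.90% of all genes, but none of the 3 passed after adjustment. Dot1l differed by 0.068 on the log2 scale on its brighter probe set. With limma and Benjamini-Hochberg adjustment 0 of the 23 probe sets passed at an adjusted p under 0.05, against 0.428% of all 37818 probe sets tested, and 0 of the 9 genes, against 0.498% of all genes. Without adjustment 5 of the 23 probe sets lay under 0.05 (4 higher, 1 lower), where 16.3% of all probe sets did, and 4 of the 9 genes, where 17.2% of all genes did.

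CG-rich promoters are a known class of Polycomb target, and whether Polycomb acts at any of the 9 genes was not tested. The promoters of the 3 genes without overlap are shown because these are the members whose arrays separate by genotype. Each is the RefSeq window (build GRCm38.p6) of 300 bases, from 250 before to 50 after an annotated start, with CG dinucleotides in capitals. Where a gene has several starts, the window with most CG is given.
Aff1, chr5:103753912-103754211, plus strand: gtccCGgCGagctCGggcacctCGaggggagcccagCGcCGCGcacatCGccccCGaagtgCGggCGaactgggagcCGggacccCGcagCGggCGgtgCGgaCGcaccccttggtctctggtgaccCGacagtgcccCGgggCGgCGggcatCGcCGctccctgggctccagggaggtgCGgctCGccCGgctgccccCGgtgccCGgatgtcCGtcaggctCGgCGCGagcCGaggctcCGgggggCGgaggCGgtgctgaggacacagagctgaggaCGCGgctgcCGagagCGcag
Mllt3, chr4:88033358-88033657, minus strand: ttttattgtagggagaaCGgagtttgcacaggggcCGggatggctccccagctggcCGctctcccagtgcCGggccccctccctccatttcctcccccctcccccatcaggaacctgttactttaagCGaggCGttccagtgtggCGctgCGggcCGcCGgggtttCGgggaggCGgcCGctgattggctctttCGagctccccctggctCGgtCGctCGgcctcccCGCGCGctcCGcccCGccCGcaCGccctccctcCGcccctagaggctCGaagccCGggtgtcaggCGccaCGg
Ccnt1, chr15:98567687-98567986, minus strand: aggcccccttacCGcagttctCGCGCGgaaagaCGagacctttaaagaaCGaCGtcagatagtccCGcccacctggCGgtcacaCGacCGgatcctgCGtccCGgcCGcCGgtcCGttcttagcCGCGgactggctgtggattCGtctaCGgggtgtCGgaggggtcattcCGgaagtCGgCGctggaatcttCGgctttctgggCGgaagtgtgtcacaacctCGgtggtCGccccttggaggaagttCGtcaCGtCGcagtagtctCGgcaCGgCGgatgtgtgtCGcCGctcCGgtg
These windows hold 40, 29 and 37 CG dinucleotides for Aff1, Mllt3 and Ccnt1, and 3.91%, 12.9% and 5.58% of all 32851 windows in the table hold at least as many. All 9 genes have a window in that table, 13 windows in total. Their median count was 37 CG, against 7 over all windows, which cover every listed gene, coding or not. Dot1l had the most, 49, while the second Aff1 start had 22, the second Mllt3 start had 4 and 2 of the 3 Mllt10 starts had 6 and 7. Searched on both strands, TATAAA was in 0 of the 13 windows, against 13.6% of all windows, and GGGCGG was in 9 of the 13, against 35.7% of all. CCAAT was in 5 of the 13, against 37.4% of all. These letters are a description of the windows, and no binding or histone mark was measured here.

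Ezh2 itself was read first as a check of the labels. Its single probe set read 639, 643, 658, 495 and 538 in Ezh2-null samples, against 887, 1561, 1685 and 1900 in WT samples. All Ezh2-null arrays lay below all WT arrays, which matches the labels. The difference was -1.30 on the log2 scale (limma, adjusted p = 0.0373). That call was lost in 8 of 18 alternative analyses, with adjusted p between 0.00632 and 0.149. Whether its probes fall inside the deleted exons was not examined.

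The WT arrays were less alike than the Ezh2-null arrays. Across genes, which are not independent replicates, Pearson correlations were 0.977 to 0.984 among Ezh2-null arrays, against 0.956 to 0.988 among WT arrays, where WT replicates 3 and 4 were the closest pair. All 9 of 10 listed myeloid markers that were measured lay above the median gene, among them Mpo, Elane and Csf1r, while 0 of 5 T cell and 0 of 5 erythroid markers did, so the labelled cell type has its markers. Of the B cell markers 2 of 4 measured lay above that median, and of the stromal markers 2 of 5. Summed intensity of the mature neutrophil markers (7 of 8 measured) ran from 35166 to 71102 in Ezh2-null and from 11157 to 52755 in WT samples, and that of the cycling markers (8 of 9 measured) from 15353 to 18345 in Ezh2-null and from 19699 to 22460 in WT samples, with no overlap for the cycling list. The low neutrophil marker levels were those of WT replicates 3 and 4, at -2.02 and -1.46 (mean log2 deviation over the list), while Ezh2-null arrays ran from -0.42 to 1.01 and WT replicates 1 and 2 stood at 0.42 and 0.36. No marker of any list was at 0, as background-corrected array values do not reach it. The part these markers play in the values below was not tested. In bulk RNA, fewer cells of a type and less RNA per cell cannot be told apart.

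**Figure D1:**
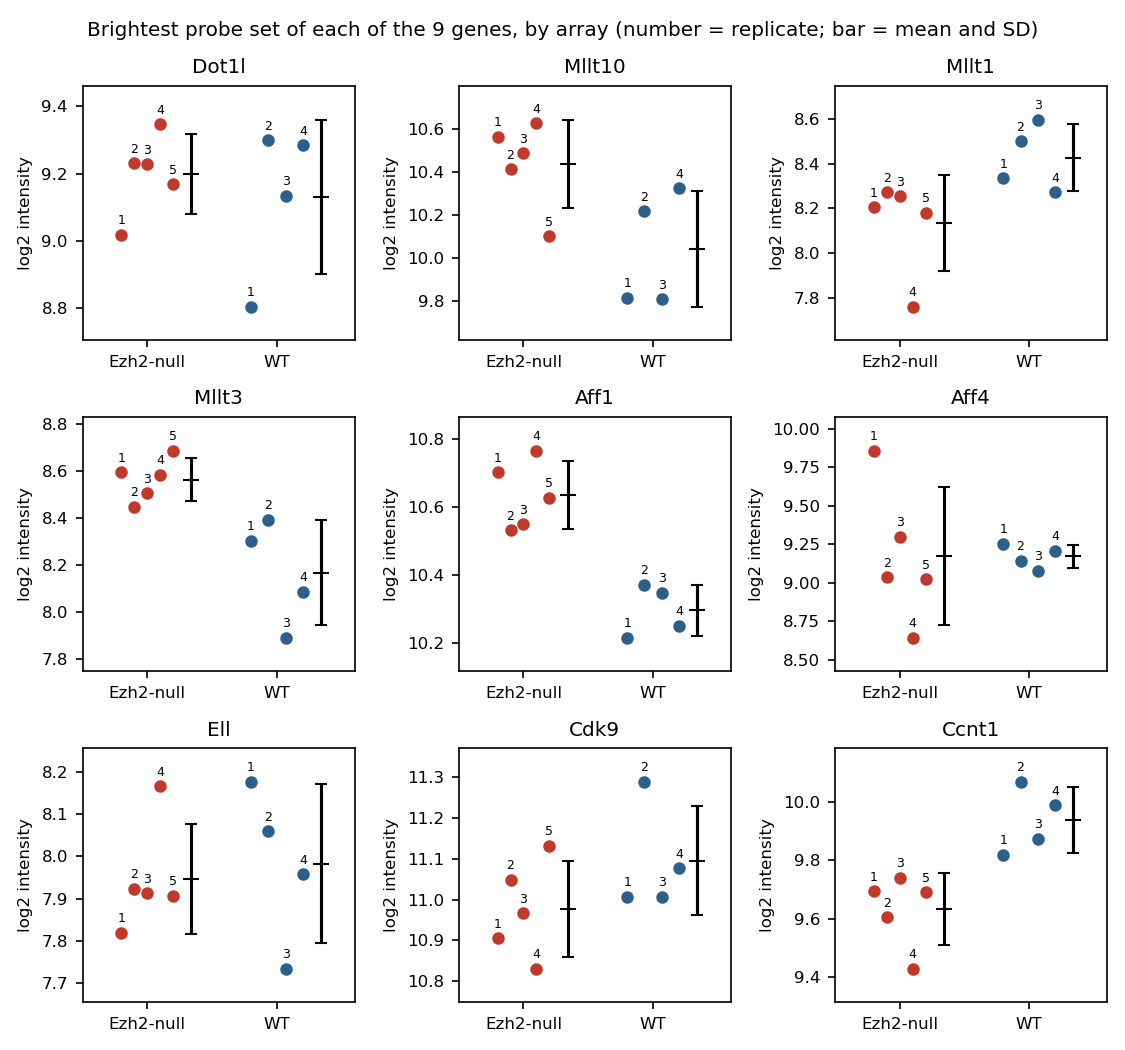
Log2 intensity of the brightest probe set of each of the 9 genes on every array, Ezh2-null (red, n = 5) left of WT (blue, n = 4). Points carry their replicate number and bars give mean and SD. Aff1 and Mllt3 lie above all WT arrays on all Ezh2-null arrays, Ccnt1 is lower, and the other 6 genes overlap or touch.

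Dot1l differed by less than the spread between arrays. Its brighter probe set (1457268_at) read 519, 601, 600, 651 and 576 in Ezh2-null samples, against 447, 630, 562 and 623 in WT samples. The WT arrays covered the whole range of the Ezh2-null arrays but for 1 sample, and WT replicate 1 was the lowest of all 9. Log2 means were 9.20 ± 0.12 (SD, n = 5) in Ezh2-null and 9.13 ± 0.23 (SD, n = 4) in WT leukaemia, a difference of 0.068 with a 95% interval of -0.22 to 0.36 (limma, adjusted p = 0.835). The second probe set (1439488_at) pointed the other way, at -0.20 (interval -0.66 to 0.26, adjusted p = 0.663). It read 380, 256, 385, 269 and 371 in Ezh2-null samples, against 262, 361, 468 and 454 in WT samples. Both genotypes overlapped widely there, with the 2 highest values on WT replicates 3 and 4. Over the 9 arrays the probe sets of Dot1l followed each other weakly (Pearson r = 0.18, Spearman rho = -0.13). Averaged over both probe sets, Dot1l stood at -0.068 (limma, adjusted p = 0.838), so its sign depends on the probe set.

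By Pearson correlation over the same 9 arrays, the named genes most like the brighter Dot1l probe set were Hist2h3c2, a gene for histone H3 (r = 0.96), Igj, the joining chain of polymeric immunoglobulin (r = 0.91), and Dync1li2, a dynein light intermediate chain (r = 0.90). Spearman rho was 0.87, 0.90 and 0.79 for the same genes. Igj lay at a percentile of 3.95 among all genes by mean level, so its r rests on very low values. As with Dot1l, WT replicate 1 was the lowest array for each of them. The points share arrays and normalization, and these genes were picked as the highest of all, so the values are a description.

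Mllt10, the gene of the DOT1L partner AF10, had 4 probe sets with differing patterns. The brightest (1438525_at) read 1514, 1363, 1436, 1580 and 1099 in Ezh2-null samples, against 902, 1191, 897 and 1283 in WT samples. Of the Ezh2-null arrays 4 lay above all WT arrays, while replicate 5 lay below WT replicates 2 and 4. The log2 difference was 0.40 (SE 0.16, interval 0.05 to 0.75), with a limma p of 0.0302 before adjustment and 0.256 after it, and an exact permutation test gave p = 0.0476 (two-sided). The next 2 probe sets stood at -0.0094 (1420869_at, interval -0.44 to 0.42) and 0.0093 (1420870_at, interval -0.47 to 0.48). The dimmest, 1442070_at, stood at 0.36 (interval -0.25 to 0.97), where WT replicate 1 alone read 118 and the other WT arrays 233 to 350, against 262 to 368 in Ezh2-null samples. Without WT replicate 1 that value was 0.045, and without WT replicates 3 and 4 it was 0.81. Averaged over its probe sets, Mllt10 differed by 0.19 (limma, adjusted p = 0.530).

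Of the paralogous YEATS readers, Mllt3 read higher and Mllt1 lower in Ezh2-null leukaemia on their brightest probe sets, and neither passed. For Mllt3 (1453622_s_at) intensities were 387, 350, 364, 384 and 412 in Ezh2-null samples, against 316, 336, 237 and 272 in WT samples. Every Ezh2-null array lay above every WT array, by 0.056 on the log2 scale at the nearest point, and WT replicates 3 and 4 were the lowest. Means were 8.56 ± 0.09 (SD, n = 5) in Ezh2-null and 8.17 ± 0.23 (SD, n = 4) in WT samples, a log2 difference of 0.40 (SE 0.13, interval 0.11 to 0.68, limma adjusted p = 0.180). The exact permutation p of 0.00794 is the smallest that 5 against 4 arrays allow. Without WT replicates 3 and 4 the difference was 0.22 (adjusted p = 0.529). All 4 Mllt3 probe sets had a positive difference. The widest was 1441535_at at 0.80 (SE 0.30, interval 0.12 to 1.47, adjusted p = 0.236), with 411, 120, 276, 171 and 228 in Ezh2-null samples, against 141, 126, 133 and 111 in WT samples. There the WT arrays were close together and the Ezh2-null arrays far apart, with Ezh2-null replicate 2 inside the WT range and an exact permutation p of 0.0714. The dimmer probe sets 1431890_a_at and 1429205_at stood at 0.41 (interval -0.62 to 1.43) and 0.094 (interval -0.22 to 0.41). Both lay in the lowest 40% of probe sets by mean level. The retrovirus carries the AF9 part of the fusion in both groups, and whether any Mllt3 probe set also reads the transgene was not tested.

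Mllt1, which encodes ENL, read 295, 309, 305, 217 and 290 in Ezh2-null samples on its brighter probe set (1434805_at), against 323, 363, 388 and 309 in WT samples. The highest Ezh2-null array and the lowest WT array shared 1 value, and Ezh2-null replicate 4 lay well below the rest. The log2 difference was -0.29 (SE 0.14, interval -0.60 to 0.01, limma adjusted p = 0.327). Its other probe set (1421060_at) stood at 0.12 (interval -0.35 to 0.59) with genotypes that overlapped. Over the 9 arrays the 2 Mllt1 probe sets did not follow each other (Pearson r = 0.02, Spearman rho = -0.04).

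**Figure D2:**
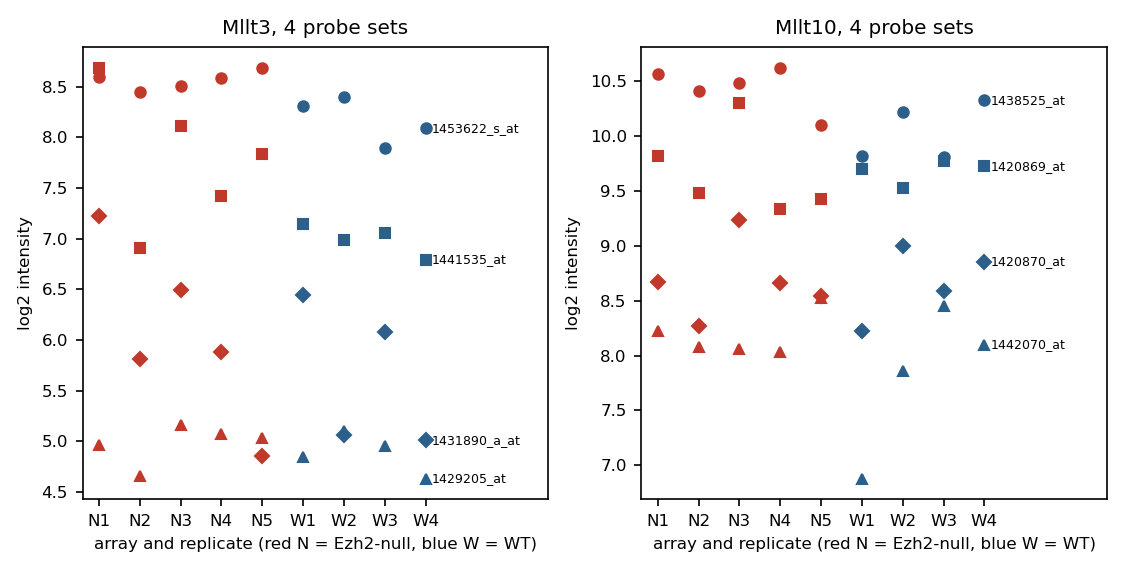
Log2 intensity of the 4 Mllt3 and 4 Mllt10 probe sets on each array, with Ezh2-null replicates (N, red) left of WT replicates (W, blue) and 1 marker shape for each probe set. Mllt3 1453622_s_at separates the genotypes, 1441535_at is spread in Ezh2-null and tight in WT, and the Mllt10 probe sets differ in pattern among themselves.

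Among the AFF scaffolds, Aff1 had the smallest p of the 9 genes and Aff4 the largest. The brightest Aff1 probe set (1418135_at) read 1665, 1480, 1497, 1740 and 1581 in Ezh2-null samples, against 1188, 1324, 1302 and 1218 in WT samples. Both groups were tight and apart, with a gap of 0.16 on the log2 scale. Means were 10.63 ± 0.10 (SD, n = 5) in Ezh2-null and 10.30 ± 0.08 (SD, n = 4) in WT samples. The difference was 0.34 (SE 0.10, interval 0.11 to 0.56), with a limma p of 0.00734 before adjustment and 0.160 after it. The exact permutation p was 0.00794. Over 17 alternative analyses this difference stayed between 0.31 and 0.42, with adjusted p from 0.101 to 0.350, and it was 0.34 without WT replicates 3 and 4. The other Aff1 probe sets stood at 0.16 (1425641_at, interval -0.19 to 0.51) and -0.080 (1425640_at, interval -0.55 to 0.39). Both intervals include 0 as well as 0.34. Averaged over its probe sets, Aff1 differed by 0.14 (limma, adjusted p = 0.567).

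For Aff4 the Ezh2-null arrays were spread around the WT arrays. Its brightest probe set (1450031_at) read 928, 525, 630, 400 and 521 in Ezh2-null samples, against 610, 566, 541 and 592 in WT samples. Ezh2-null replicates 1 and 4 were the highest and lowest of all 9, and the SD was 0.45 in Ezh2-null against 0.08 in WT samples on the log2 scale. The difference of means was 0.00085 (interval -0.47 to 0.47, limma adjusted p = 0.999). The other Aff4 probe sets stood at 0.098 (1420912_at) and 0.16 (1458959_at), with adjusted p of 0.742 and 0.578. Ell, an elongation factor that suppresses pausing of the polymerase, stood at -0.036 (1441928_x_at, interval -0.31 to 0.24) and 0.048 (1460643_at, interval -0.34 to 0.44). Its values ran from 226 to 287 in Ezh2-null and from 213 to 289 in WT samples on the first of these, so the WT range held all Ezh2-null arrays. In this naming scheme the suffix of that probe set marks probes that may also bind other sequences.

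The P-TEFb subunits both read lower, Ccnt1 more than Cdk9. Ccnt1, the gene of cyclin T1, has a single usable probe set (1456477_at), which read 829, 779, 855, 688 and 826 in Ezh2-null samples, against 904, 1076, 939 and 1017 in WT samples. All Ezh2-null arrays lay below all WT arrays, by 0.079 on the log2 scale at the nearest point. Means were 9.63 ± 0.12 (SD, n = 5) in Ezh2-null and 9.94 ± 0.11 (SD, n = 4) in WT samples. The difference was -0.31 (SE 0.11, interval -0.55 to -0.06), with a limma p of 0.0191 before adjustment and 0.218 after it. The exact permutation p was 0.00794. It stood at -0.31 without WT replicates 3 and 4 (adjusted p = 0.435). Cdk9, the kinase, read 1917, 2118, 2000, 1821 and 2244 in Ezh2-null samples on its brighter probe set (1417269_at), against 2058, 2502, 2058 and 2161 in WT samples. The genotypes overlapped, with a difference of -0.12 (interval -0.37 to 0.13, adjusted p = 0.636), and the dim second probe set (1457240_at) stood at -0.079.

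**Figure D3:**
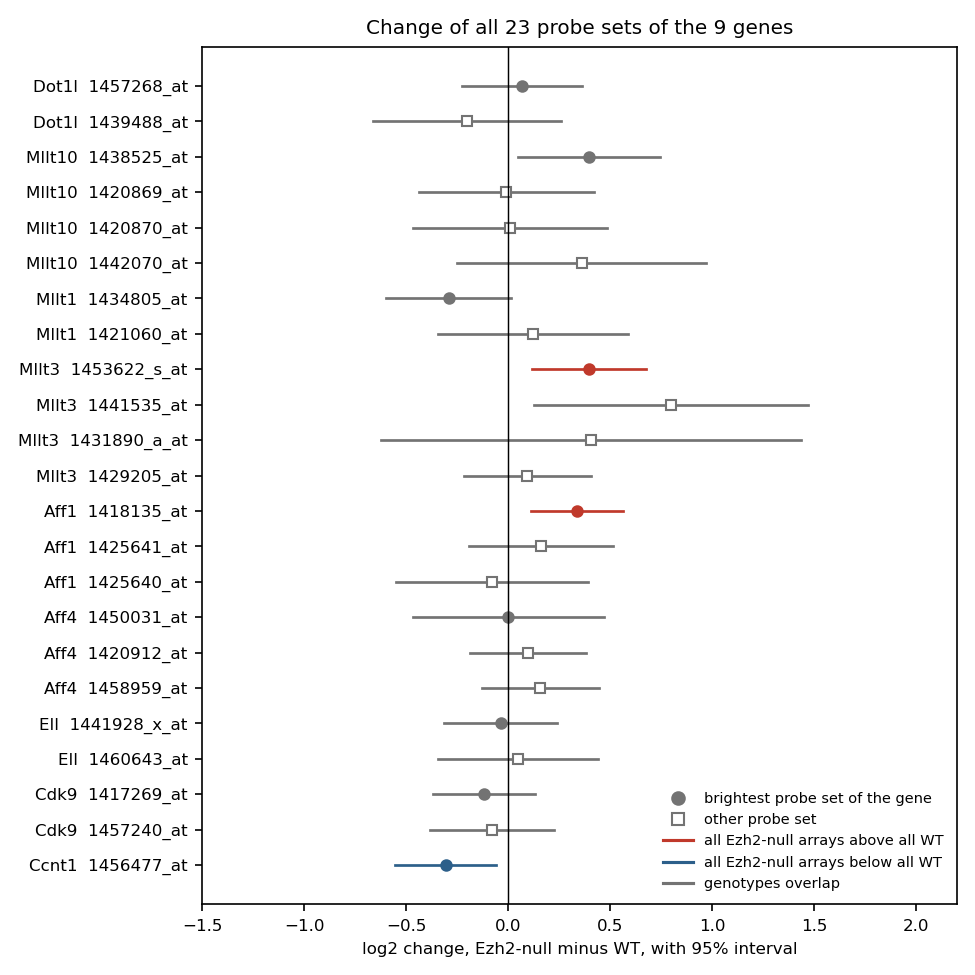
Log2 change (Ezh2-null minus WT, 95% interval from limma) of all 23 probe sets, filled circles for the brightest of a gene and open squares for the others. Coloured lines mark the 3 probe sets without overlap (Mllt3 and Aff1 higher, Ccnt1 lower), and 15 of the 23 changes are smaller than 0.25 in size.

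Over the 23 probe sets, 15 differences were positive and 8 negative, with a median of 0.068, against 0.0061 over all probe sets. Their median size without regard to sign was 0.12, against 0.18 over all probe sets. No member reached a 2-fold difference, and for 21 of the 23 the 95% interval lay wholly within 2-fold either way. The exceptions were Mllt3 1441535_at and 1431890_a_at. Of the 23, 19 lay above the 40th percentile of mean level, and the 4 below it were 2 of Mllt3, 1 of Aff4 and 1 of Cdk9. The genotypes did not overlap in 3 of the 23 probe sets, where 5.50% of all probe sets did not, 2.70% with Ezh2-null higher and 2.80% with it lower. By gene, 3 of 9 did not overlap, against 5.90% of all genes. The overlap and the limma p come from the same values. In pairs of probe sets of one gene, Pearson r over the 9 arrays ran from -0.63 for Cdk9 to 0.62 for the brightest pair of Mllt3. The probe sets of a pair share arrays and RNA.

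The wider elongation machinery was read in 6 lists of other genes, with 35 of 37 measured. Here 0 passed over all genes in either direction (limma), against 0.290% of all genes called higher and 0.208% called lower, and 8 lay under an unadjusted p of 0.05 (3 higher, 5 lower), against 8.20% and 8.97% of all genes. Negative differences made up 26 of the 35, against 46.7% of all genes, and the median was -0.088, against 0.019 over all genes. Among genes above the 40th percentile of mean level, 25 of 34 were negative, against 54.7% of all such genes, with a median of -0.098, against -0.037. Without WT replicates 3 and 4, 18 of the 35 were negative, against 53.5% of all genes, and with quantile normalization 19 of the 35, against 49.3% of all genes. Of the 6 measured PAF1 complex genes, 2 did not overlap between the genotypes, against 5.90% of all genes. All 6 were negative, with a median of -0.30. They ran from -0.52 for Ctr9 (interval -1.27 to 0.23) to -0.014 for Cdc73 (interval -0.40 to 0.37). For Ctr9, WT replicate 1 read 2276 and the other WT arrays 805, 806 and 816. PAF1C travels with the polymerase and binds MLL. Its subunit Paf1 read 3051, 3759, 2901, 2909 and 3621 in Ezh2-null samples, against 4277, 3904, 4208 and 3912 in WT samples. The log2 difference was -0.33 (SE 0.12, limma adjusted p = 0.190). Rtf1, which recruits the H2B ubiquitylation enzymes, read 528, 718, 692, 577 and 690 in Ezh2-null samples, against 828, 729, 851 and 804 in WT samples, a difference of -0.33 (SE 0.12, adjusted p = 0.210). Neither gene overlapped between the genotypes. Without WT replicates 3 and 4 the PAF1 complex median was -0.23, and with quantile normalization -0.22, with 5 of 6 genes negative in each.

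All 5 measured genes of DSIF and NELF, the factors that hold the polymerase at the pause, were negative, with a median of -0.11. Cobra1 (NELF subunit B) stood at -0.19 and Rdbp (NELF subunit E) at -0.22, with adjusted p of 0.513 and 0.551. That sign did not hold without WT replicates 3 and 4, where the median was 0.063 and 2 of 5 were negative, while with quantile normalization 3 of 5 were. The 4 genes listed for MLL and its partners on chromatin were negative, with a median of -0.087. Among them were Mll1 (-0.13), the gene of MLL itself, and Psip1 (-0.30), the gene of LEDGF, with limma adjusted p of 0.808 and 0.495. With quantile normalization 3 of the 4 were negative. Of the genes for H2B ubiquitylation and transcribed chromatin, 7 of 8 were negative, with a median of -0.13. The exception was Ube2b, at 0.30 (SE 0.12, limma adjusted p = 0.241). Supt16h, a subunit of the histone chaperone FACT, stood at -0.41 (SE 0.12, limma adjusted p = 0.142), with 3832, 3674, 4141, 3401 and 4742 in Ezh2-null samples, against 5038, 4813, 5399 and 5736 in WT samples. Its genotypes did not overlap. Ube2a, like Ube2b the gene of an E2 enzyme for H2B, stood at -0.46 (SE 0.17, limma adjusted p = 0.198), and at -0.18 without WT replicates 3 and 4. Without those arrays the median of this list was -0.035, with 4 of 8 negative, and with quantile normalization 5 of 8 were.

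Of the relatives of the super elongation complex, 2 of 7 were negative, against the 46.7% of all genes given above, and the median was 0.33. That median was 0.17 without Ezh2-null replicate 3, 0.49 without WT replicate 3, 0.19 with array weights and 0.24 without WT replicates 3 and 4, where 3 of 7 were negative. Eaf1, an ELL-associated factor, stood at -0.58 (SE 0.21, adjusted p = 0.199), and Ell3 at 0.56 (SE 0.24, adjusted p = 0.272). Aff3, a paralogue of Aff1, was picked out after its values were seen: it read 234, 343, 402, 351 and 950 in Ezh2-null samples, against 454, 540, 38.6 and 96.5 in WT samples. WT replicates 3 and 4 were far below the other 7 arrays, and the difference of 1.22 (interval -0.43 to 2.86) had an adjusted p of 0.428. Without those arrays it was -0.29. Among controllers of P-TEFb, 3 of 5 were positive. Mepce and Larp7, which both hold the 7SK RNA that keeps P-TEFb inactive, stood at 0.35 (SE 0.13, adjusted p = 0.222) and -0.24 (SE 0.11, adjusted p = 0.295). Larp7 stood at -0.084 without WT replicates 3 and 4. All Ezh2-null arrays lay below all WT arrays for Larp7 as for Paf1, Rtf1 and Supt16h, which makes 4 of the 35 genes, against 2.87% of all genes. In either direction 5 of the 35 did not overlap, against 5.90% of all genes.

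**Figure D4:**
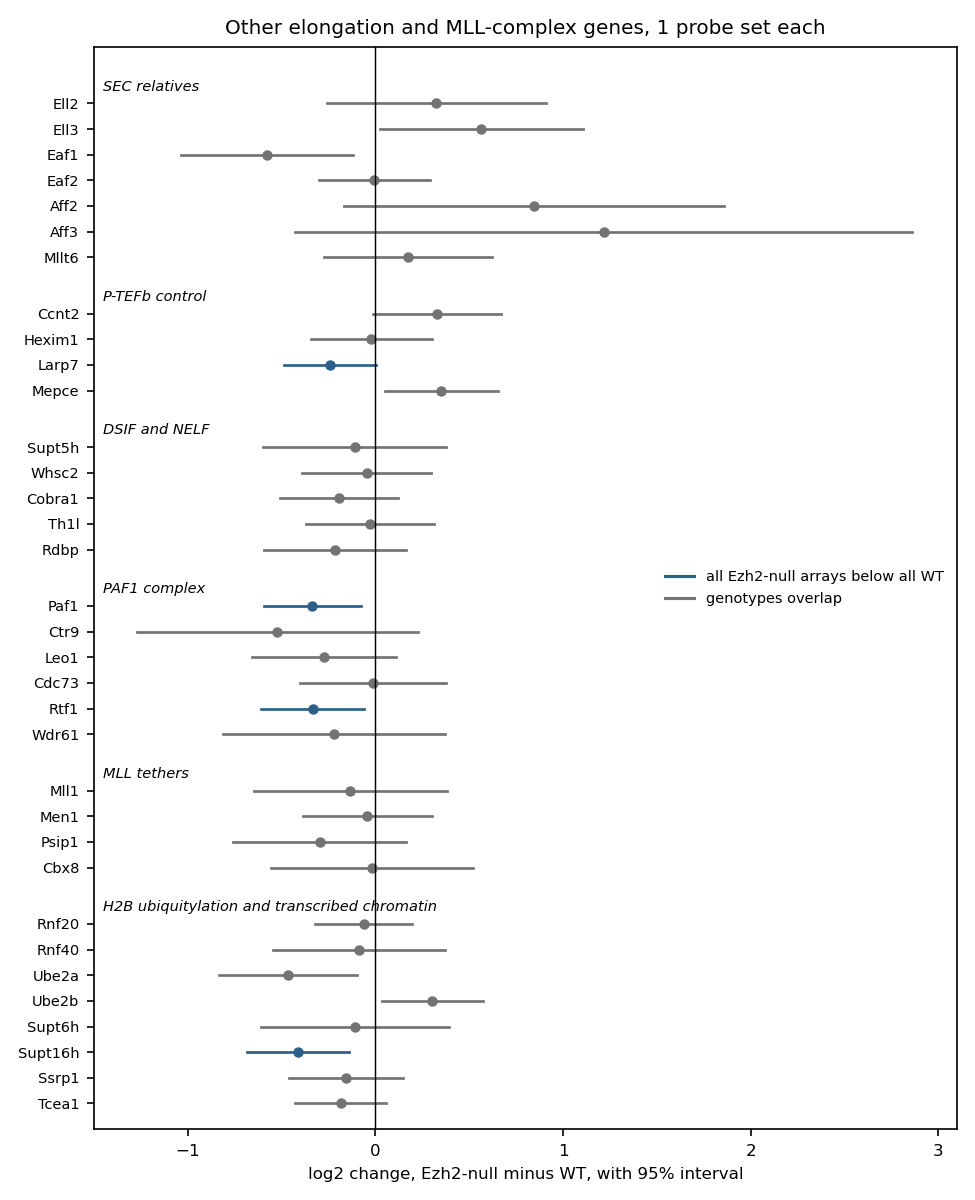
Log2 change (Ezh2-null minus WT, 95% interval from limma) of 34 other elongation and MLL-complex genes in 6 lists, 1 probe set each. Coloured lines mark the 4 genes whose Ezh2-null arrays all lie below the WT arrays (Larp7, Paf1, Rtf1 and Supt16h), and all 6 PAF1 complex genes lie left of 0.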

How the data were processed

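Total RNA of 9 samples was amplified, labelled with biotin and hybridised to 1 array per sample, per the labels' protocols. The authors deposited 1 linear intensity for each probe set and array, from RMA per the submitters' processing notes. RMA works in log2, so the values must have been returned to the linear scale. The authors also deposited an intensity table corrected with ComBat jointly with a further series, per the file headers. Neither its batches nor its covariates were stated, 7 columns belong to other samples and were not read, and 2 values under a floor of 1 were raised to it.

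From 45101 probe sets, 37818 remained after dropping 64 controls, 5820 without a gene and 1399 naming more than 1 gene. Their log2 intensity was tested in R 4.3.3 with limma 3.58.1 (lmFit, eBayes), genotype being the model's single term, and Benjamini-Hochberg adjustment covered every probe set, threshold 0.05. The test by gene used the probe set with the highest mean, 20680 genes. Single values were also tested by exact permutation, two-sided, over the 126 possible splits. Intervals are at 95%, and the number of arrays limits the precision. The fit was tested on simulated data for bias, interval coverage and false calls. A first criterion, on the number of large differences called in those data, was narrowly missed and was replaced by these after that result was seen, so power at this sample size is limited.

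All members are named. Of the other lists, the genes named are any that passed and otherwise the 2 with the smallest p. Ctr9, Cdc73, Aff3 and Ube2b were named besides, for their values. For likeness the 3 genes with the highest r that are not clone or locus numbers are named. The members, lists and alternatives were chosen with earlier results of these data known. Alternatives were the ComBat table, quantile normalization, centred medians, array weights, robust variance with a trend on intensity, a filter at the 40th percentile, the replicate block, leaving out each array, leaving out WT replicates 3 and 4, a threshold of 0.1 and the mean of probe sets. Same-numbered samples share no stated origin. Symbols are those of the table, in which 2 of 37 listed genes were not found as single-gene probe sets. The results of 1 listed gene are not reported here, though counts over the lists include it. Promoters came from RefSeq, Python 3.11.15.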

Additional observations from a re-analysis of the deposited data

Results flagged for a closer look

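Within a genotype, 1 array stood far from the others in 3 of the 46 groups of values examined (23 probe sets in 2 genotypes), and chance gives about 1 in 20. Ezh2-null replicate 4 read 7.76 (log2) for Mllt1 on 1434805_at, with the next array at 8.18. WT replicate 2 read 6.36 for Aff4 on 1458959_at, with the next at 6.01, and 7.61 for Ell on 1460643_at, with the next at 7.28. Without Ezh2-null replicate 4 the Mllt1 difference was -0.20 (limma, adjusted p = 0.507).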

How the results depend on the processing

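No member probe set passed in any of the 17 alternative analyses of single probe sets, and 0 passed at an adjusted p under 0.1. By gene, 1 of the 9 passed with array weights, Mllt3 (0.48, limma adjusted p = 0.0481), where 4.87% of all genes were called, against 0.498% in the main analysis. No list gene passed in any alternative, the smallest adjusted p being 0.0521. The number of genes called over the whole series, 103, ran from 17 to 330 when 1 array was left out, and was 61 without WT replicates 3 and 4, 202 in the batch-adjusted table (94 higher, 108 lower, against 60 and 43), 488 at an adjusted p under 0.1 and 1007 with array weights. For probe sets, 162 in the main analysis, it ran from 24 to 743. Of the 23 probe sets 13 kept their sign in all their alternatives, and 10 changed it in 33 analyses, none with an adjusted p under 0.616. In the batch-adjusted table the new values were 0.025 (Mllt10 1420869_at), 0.050 (Aff1 1425640_at) and -0.038 (Aff4 1450031_at). Quantile normalization gave 0.080 (Mllt10 1420869_at), and centred medians -0.016 (Mllt10 1420870_at) and -0.024 (Aff4 1450031_at). Array weights gave -0.035 (Mllt10 1420870_at), -0.020 (Aff4 1450031_at) and 0.037 (Ell 1441928_x_at). With the replicate block Mllt10 1420869_at stood at 0.053 and Ezh2 at -1.26 (adjusted p = 0.0815), the one call of these results that the block ended. Without WT replicates 3 and 4 the values were 0.089 (Dot1l 1439488_at), 0.058 (Mllt10 1420869_at), -0.053 (Mllt1 1421060_at), -0.026 (Aff4 1450031_at), -0.038 (Ell 1460643_at), 0.033 (Cdk9 1457240_at) and -0.99 for Ezh2 (adjusted p = 0.149). Leaving out 1 array at a time gave ranges of -0.040 to 0.12 (Dot1l 1457268_at), -0.17 to 0.074 (Mllt10 1420869_at), -0.14 to 0.12 (Mllt10 1420870_at), -0.0016 to 0.29 (Mllt1 1421060_at), -0.28 to 0.051 (Aff1 1425640_at), -0.17 to 0.13 (Aff4 1450031_at), -0.12 to 0.028 (Ell 1441928_x_at), -0.083 to 0.13 (Ell 1460643_at) and -1.53 to -1.17 (Ezh2). Ezh2 then passed in 3 of 9 analyses, and did not without Ezh2-null replicate 1, 2, 3 or 4 or WT replicate 3 or 4. The cause of these shifts was not tested. Deviations from the group means were correlated between same-numbered samples of the genotypes at -0.045, 0.086, 0.13 and -0.14 for replicates 1 to 4. Such weak correlations give no sign of pairing by number, but they cannot exclude a shared origin.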
